A study of Mus musculus with 60 samples.

Results

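The 10 genes described here encode C-type lectins that are known from myeloid cells: Clec4e, Clec4d, Clec4n, Clec5a, Clec7a, Clec1b, Clec12a, Clec4a2, Clec4a1 and Clec4a3. They were chosen by name, leaving out Clec4f, a marker gene of the Kupffer cell (the liver's resident macrophage). All 10 were found among the 24411 genes of the count table, and all 10 were among the 9001 genes abundant enough to be tested.

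Counts came from Kupffer cell preparations of 15 mice in 3 groups of 5, all of strain C57BL/6J, 8 weeks old and male according to the labels. The groups were wild type dosed with corn oil, wild type dosed with carbon tetrachloride (CCl4) and Trem1-deficient dosed with CCl4. CCl4 is a solvent toxic to hepatocytes; 1 dose of 2 µl per g body weight was given in corn oil 12 h before the cells were taken. No group of Trem1-deficient mice given oil was analysed here, so an effect of the deficiency without CCl4 was not measured. The sources used here do not give how, or in which cells, the Trem1 allele was disrupted. The preparations were made by removing cells that bound CD11b beads, a protein carried by neutrophils and monocytes, and then collecting F4/80-positive cells with beads. The study addresses how Kupffer cells taken from Trem1-deficient mice respond to a toxic liver injury. TREM1 is an activating receptor of myeloid cells.

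The 15 libraries held 812320 to 2593004 gene counts, so the upper limit for a gene with a count of 0 (3 counts) was 1.0 to 4.15 CPM on the scale of all levels here (CPM, counts scaled to the size of the library as corrected by edgeR's TMM factors). Trem1 was lower in the Trem1-deficient group (4.29 ± 4.09 CPM, SD, n = 5 here and below) than in wild-type mice given CCl4 (348 ± 167 CPM) or oil (54.0 ± 31.4 CPM), as its label says. The numbers after the letters BC in the labels' library names fell into 2 runs in steps of 12, called index series here. One series held the complete oil group plus mice 1 and 2 of the Trem1-deficient group, and these 7 libraries had 72 to 1552 counts of Xist and 0 to 7 of Y-linked genes. The other series held the complete wild-type CCl4 group plus mice 3, 4 and 5 of the Trem1-deficient group, with 1 to 31 counts of Xist and 134 to 425 of Y-linked genes. So 7 libraries went against the label of male mice, and CCl4 in wild-type mice cannot be told apart from index series and sex-linked transcripts by group alone. Values of the members are therefore also given with the index series in the fit, and for some within 1 series where both groups had mice in it. No series held both wild-type groups, so their difference in that fit is set through the Trem1-deficient mice of the 2 series. A CCl4 call held or lost there is therefore not a comparison of wild-type mice within a series.

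Kupffer cell markers were detected in every library, with 1 of 21 (Pira11) at 0 throughout, but their levels differed between the groups. Summed over the 21 Kupffer markers, levels lay at 37400 to 72600 CPM in oil mice, 7090 to 27300 CPM in wild-type CCl4 mice and 52800 to 69500 CPM in Trem1-deficient CCl4 mice. After CCl4 in wild-type mice, 14 of 20 tested Kupffer markers were lower and 0 higher (edgeR, adjusted p under 0.05). By the same test 4 of 10 neutrophil, 6 of 14 monocyte and 5 of 20 hepatocyte markers were higher and 0 lower. Of all genes tested, 3.04% were higher and 2.09% lower. The 5 hepatocyte markers were Serpina3k, Fgg, Fga, Fgb and Hp. With the index series in the fit, an alternative chosen for these lists after seeing the data, 7 Kupffer, 3 neutrophil, 3 monocyte and 0 hepatocyte markers held their calls. The neutrophil sum ran from 233 to 1780 CPM in oil mice, from 1340 to 12400 CPM in wild-type CCl4 mice and from 398 to 3300 CPM in Trem1-deficient mice. The monocyte sum was 618 to 1480 CPM, 2820 to 5390 CPM and 852 to 1670 CPM in the same order, and the hepatocyte sum 3610 to 18600 CPM, 19600 to 66900 CPM and 2290 to 25400 CPM. In bulk RNA, fewer cells of a type and less RNA per cell cannot be told apart, and the part of these markers in the results below was not tested.

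C-type lectin receptors of myeloid cells carry an extracellular domain that binds sugars, lipids or proteins of microbes and of dying cells. Activating members signal through the kinase Syk, either by pairing with the Fc receptor gamma chain (Fcer1g) or the adaptor DAP12 (Tyrobp), or by a single tyrosine motif in their own tail; CARD9 then links Syk to NF-kB and cytokine genes. Inhibitory members carry a tail motif that recruits phosphatases such as SHP-1 (Ptpn6). Clec4e encodes Mincle, which binds mycobacterial cord factor and the nuclear protein SAP130 released from dead cells. Clec4d encodes MCL, which pairs with Mincle and helps it reach the cell surface.

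All 10 genes lie on mouse chromosome 6 (GRCm38, GENCODE M21). Clec4a1, Clec4a3, Clec4a2, Clec4n, Clec4d and Clec4e lie in this order between 122921848 and 123289870. Gaps between them reach 136552 bases (Clec4a3 to Clec4a2), and other genes in the gaps were not listed. Clec4d (plus strand) and Clec4e (minus strand) end 6523 bases apart. Clec12a, Clec1b and Clec7a lie between 129342691 and 129472779, and Clec5a lies alone at 40574894 to 40585821. The 250 bases before the annotated start are shown for the 4 genes whose transcripts passed the test after CCl4, because the first pair rose and the second fell. They come from RefSeq (GRCm38.p6), in which 9 of the 10 genes were matched, and read 5′ to 3′ on the strand of the gene. Capitals mark matches, on either strand, to a PU.1 motif (GAGGAA), a C/EBP motif (TTNNGNAA), an AP-1 motif (TGANTCA) or the NF-kB motif; no 2 matches of different motifs overlapped in these 4 windows.
Clec4e, chr6:123289872-123290121, minus strand: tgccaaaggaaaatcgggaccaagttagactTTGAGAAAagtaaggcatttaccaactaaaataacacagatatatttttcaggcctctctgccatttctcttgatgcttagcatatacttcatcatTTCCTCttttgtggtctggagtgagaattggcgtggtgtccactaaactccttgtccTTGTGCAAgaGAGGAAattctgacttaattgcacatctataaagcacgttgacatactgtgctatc
Clec4d, chr6:123261857-123262106, plus strand: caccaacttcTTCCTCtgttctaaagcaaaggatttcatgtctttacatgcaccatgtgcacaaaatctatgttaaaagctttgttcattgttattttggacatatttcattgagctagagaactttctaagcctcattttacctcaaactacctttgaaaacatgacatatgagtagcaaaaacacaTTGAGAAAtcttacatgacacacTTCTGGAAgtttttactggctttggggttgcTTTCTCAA
Clec1b, chr6:129397047-129397296, plus strand: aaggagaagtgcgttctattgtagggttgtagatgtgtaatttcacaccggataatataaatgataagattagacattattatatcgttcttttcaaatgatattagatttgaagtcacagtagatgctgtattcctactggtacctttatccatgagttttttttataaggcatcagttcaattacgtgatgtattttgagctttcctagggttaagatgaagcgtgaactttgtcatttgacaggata
Clec4a3, chr6:122952394-122952643, plus strand: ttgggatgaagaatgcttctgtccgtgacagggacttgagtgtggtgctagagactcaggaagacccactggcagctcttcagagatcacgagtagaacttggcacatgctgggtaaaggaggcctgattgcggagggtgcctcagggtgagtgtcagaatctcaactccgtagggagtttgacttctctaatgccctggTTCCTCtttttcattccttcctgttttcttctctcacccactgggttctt
The Clec4e window held 2 C/EBP and 2 PU.1 matches and the Clec4d window 3 C/EBP and 1 PU.1 match. The Clec1b window held 0 matches to these motifs and this Clec4a3 window 1 PU.1 match. A second annotated start of Clec4a3 had 0. Of the windows not shown, that of Clec12a held 5 matches, Clec5a 3, Clec4a1 2, Clec4a2 2 and each Clec7a window 1. C/EBP matches were among those of Clec12a, Clec5a and Clec4a2, whose transcripts did not pass the test after CCl4. These letters are common: among 32851 promoter windows of the same length, 23.3% held the PU.1 motif, 36.8% the C/EBP motif, 6.75% the AP-1 motif and 3.9% the NF-kB motif. The matches are a description of the sequence. Binding was not measured, and a link between matches and direction of change was not tested.

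Wild-type mice given CCl4 differed from oil mice in opposite directions among the members. Clec4e rose 26-fold and Clec4d 11.1-fold over the oil group, while Clec1b fell to a level 3.86-fold lower and Clec4a3 to one 2.77-fold lower. These 4 of 10 genes passed the test (edgeR quasi-likelihood, Benjamini-Hochberg adjusted over all 9001 genes, threshold 0.05), beside 5.13% of all genes tested. By direction, 2 of 10 were higher beside 3.04% of all genes, and 2 of 10 were lower beside 2.09%. The median log2 fold change was -0.71 over the 10 members and 0.06 over all genes tested. With the index series in the fit, 37 of the 9001 genes passed, against 462 without it. Of the members 1 of 10 passed there, Clec4e (higher), and the calls of Clec4d, Clec1b and Clec4a3 were lost.

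In CCl4-treated mice, Trem1 deficiency went with less Clec4e (11.9-fold) and Clec4d (10.2-fold) and more Clec1b (3.13-fold) than in wild-type mice. These 3 of 10 genes passed the test, beside 2.06% of all genes. One of 10 was higher beside 0.778% of all genes, and 2 of 10 were lower beside 1.28%. The median log2 fold change was 0.58 over the members and -0.03 over all genes. Clec4e was again the 1 of 10 that passed with the index series in the fit, where 77 of all genes passed, against 185 without it. Both comparisons share the wild-type CCl4 mice, so their values are not independent.

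Trem1-deficient mice given CCl4 were set against oil-treated wild-type mice last; genotype and treatment differ together there. None of the members passed edgeR's test (0 of 10, with 0 at an unadjusted p under 0.05 and 0 by DESeq2), beside 0.233% of all genes (0.178% higher and 0.0555% lower). The median log2 difference of the members was 0.11, and 0.02 over all genes. The largest of these differences were those of Clec5a (log2 1.34 ± 1.48, SE) and Clec4e (1.13 ± 0.66), so changes of that size could not be resolved with these mice. The plot of fitted differences shows the 3 comparisons for each gene.

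**Figure D1:**
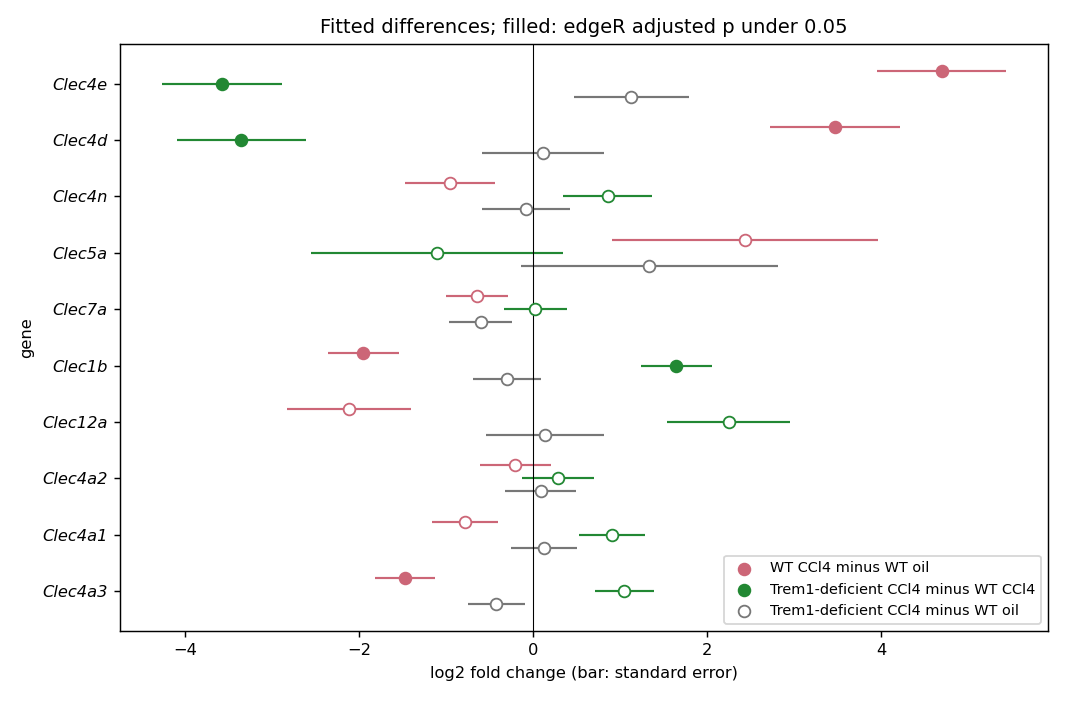
Fitted log2 fold changes (x axis) of the 10 C-type lectin genes (y axis) in the 3 comparisons, with standard errors as bars; filled points passed edgeR's adjusted p threshold of 0.05. Clec4e and Clec4d lie far to the right after CCl4 in wild-type mice (4.70 and 3.47) and far to the left in the comparison of genotypes (-3.57 and -3.35), while Clec1b and Clec4a3 lie on the opposite sides.

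Clec4e (Mincle) was near the floor of detection in oil mice. Oil mice 1 to 5 had 13.2, 3.76, 3.57, 11.5 and 11 CPM, from 57 counts in all. Wild-type CCl4 mice had 39.9, 145, 86.8, 440 and 423 CPM, so every one of them was above every oil mouse. Trem1-deficient CCl4 mice had 40.8, 30.1, 6.96, 8.16 and 8.2 CPM, and only mouse 1 of that group reached the lowest wild-type CCl4 mouse. The log2 fold change was 4.70 ± 0.74 (SE) for CCl4 in wild-type mice (edgeR adjusted p = 0.000135) and -3.57 ± 0.69 for Trem1 deficiency under CCl4 (edgeR adjusted p = 0.00352).

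The Clec4e difference between genotypes was also seen within 1 index series, but the CCl4 difference in wild-type mice could not be read within any series. Trem1-deficient mice 3, 4 and 5, which shared their series with the wild-type CCl4 mice, had 6.96 to 8.2 CPM and lay below all 5 of those mice; the log2 difference within that series was -4.84 ± 0.83 (edgeR adjusted p = 0.00316). Trem1-deficient mice 1 and 2, which shared their series with the oil mice, had 40.8 and 30.1 CPM and lay above all 5 oil mice; that log2 difference was 2.05 ± 1.0 (edgeR adjusted p = 0.852). With the index series in the fit of all mice, Clec4e was the 1 member that kept its call in both comparisons. The log2 difference was 6.88 ± 1.11 for CCl4 in wild-type mice (edgeR adjusted p = 0.000971) and -4.86 ± 0.87 for genotype (edgeR adjusted p = 0.00191). Both values rest on the Trem1-deficient mice, the only group in both series. The genotype value is therefore not separate from the one within a series.

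Clec4d (MCL), the gene next to Clec4e, followed the same order of groups. Oil mice 1 to 5 had 0.939, 47.6, 6.43, 15.4 and 9.56 CPM, the first of these from 1 count. Wild-type CCl4 mice had 45.9, 177, 135, 366 and 147 CPM, and Trem1-deficient mice had 17.0, 13.5, 23.9, 25.3 and 5.27 CPM. Oil mouse 2 lay just above the lowest wild-type CCl4 mouse, so those groups overlapped, whereas all 5 Trem1-deficient mice lay below all 5 wild-type CCl4 mice. The log2 fold change was 3.47 ± 0.75 for CCl4 in wild-type mice (edgeR adjusted p = 0.00411) and -3.35 ± 0.74 for genotype (edgeR adjusted p = 0.0108). The genotype call rested on wild-type CCl4 mouse 4 (without it -2.88, edgeR adjusted p = 0.0658). It held within 1 index series (-3.24, edgeR adjusted p = 0.0472), and both calls were lost with the series in the fit of all mice, at log2 differences of 3.23 ± 1.24 and -3.26 ± 0.93 (edgeR adjusted p = 0.493 and 0.0964).

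Neutrophils and monocytes are known to express Clec4e and Clec4d, so their markers were set beside these genes mouse by mouse. The 5 wild-type CCl4 mice had neutrophil sums of 1730, 7720, 8310, 12400 and 1340 CPM, against Clec4e at 39.9, 145, 86.8, 440 and 423 CPM. Mouse 4 had the highest value of both, and mouse 1 had the lowest Clec4e at a low neutrophil sum. Mouse 5 had the lowest neutrophil sum of its group and the second highest Clec4e. The library of mouse 5 was the smallest of the 15 (812320 gene counts), with the lowest share of reads in genes (12.59%). The neutrophil sum of mouse 5 was below those of Trem1-deficient mice 1, 2 and 3 (3300, 1670 and 2020 CPM), whose Clec4e was 40.8, 30.1 and 6.96 CPM. Oil mouse 2, with 1780 CPM of neutrophil markers, had Clec4e at 3.76 CPM and the highest Clec4d of its group. Over the 15 libraries, the correlation of log2 levels with the neutrophil sum was 0.69 for Clec4e and 0.79 for Clec4d; with group means subtracted it was 0.20 and 0.53. The monocyte sums of wild-type CCl4 mice 1 to 5 were 2820, 4220, 5390, 4720 and 4220 CPM. All of them lay above every mouse of the other groups (at most 1670 CPM). Against the monocyte sum the correlations were 0.81 and 0.87, and 0.00 and 0.47 with group means subtracted. These are descriptions over libraries that share group and depth, and the part of either cell type in these levels was not tested. The neutrophil sum averaged 757 CPM in oil, 6300 CPM in wild-type CCl4 and 1660 CPM in Trem1-deficient mice. S100a9, Mmp8, Lcn2 and G0s2 were higher in wild-type CCl4 mice than in oil mice. Of the 13 neutrophil genes found, Elane was at 0 in all wild-type CCl4 and all Trem1-deficient libraries. Mpo was at 0 in all Trem1-deficient ones. These zeros do not measure whether neutrophils were present.

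**Figure D2:**
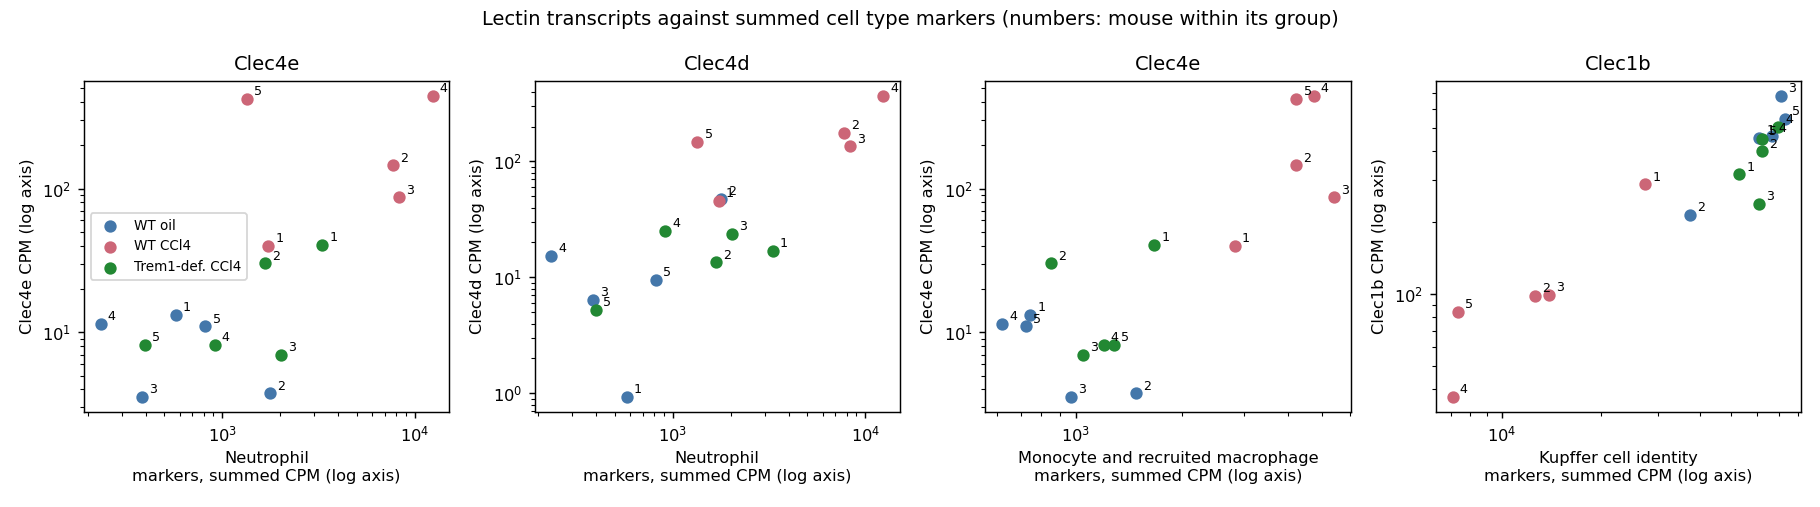
Level of Clec4e, Clec4d or Clec1b in each mouse (y axis, CPM, log axis) against the summed markers of neutrophils, monocytes or Kupffer cells (x axis, CPM, log axis); colours are groups and numbers are mice. Wild-type CCl4 mouse 4 shows 440 CPM of Clec4e at the highest neutrophil sum of its group (12400 CPM). Wild-type CCl4 mouse 5, the smallest library, shows 423 CPM of Clec4e at the lowest neutrophil sum of its group (1340 CPM) and a monocyte sum of 4220 CPM. Clec1b falls along with the Kupffer sum across all 3 groups.

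Clec4n encodes Dectin-2, a receptor for fungal mannans that also uses the Fc receptor gamma chain. Unlike Clec4d and Clec4e it was abundant in oil mice, with 236, 249, 159, 214 and 151 CPM. Wild-type CCl4 mice had 142, 42.3, 77.3, 250 and 8.30 CPM, a range that took in every oil mouse but 4 of whose 5 values were below all of them. Trem1-deficient mice had 132, 108, 200, 210 and 302 CPM. Neither difference passed the test (log2 -0.95 ± 0.52 for CCl4 and 0.86 ± 0.51 for genotype, edgeR adjusted p = 0.334 and 0.442). Mice 4 and 5 of the wild-type CCl4 group had almost equal Clec4e (440 and 423 CPM) and lay at opposite ends for Clec4n (250 and 8.30 CPM).

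Clec5a encodes MDL-1, which pairs with DAP12, the adaptor that TREM1 also uses. It was the scarcest member, listed at 0 counts in 3 of 5 oil mice, 1 of 5 wild-type CCl4 mice and 2 of 5 Trem1-deficient mice. The other libraries had 4.29 and 6.69 CPM in oil mice, 15.3, 27.2, 3.82 and 18.3 CPM in wild-type CCl4 mice and 9.69, 1.35 and 18.7 CPM in Trem1-deficient mice. With 20, 86 and 76 counts per group in all, its log2 differences (2.44 ± 1.53 and -1.10 ± 1.45, edgeR adjusted p = 0.416 and 0.791) were not resolved at this depth.

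Clec7a and Clec1b signal through a single tyrosine motif of their own. Clec7a encodes Dectin-1, the receptor for fungal beta-glucan. It stood at 287, 253, 208, 383 and 229 CPM in oil mice, 156, 251, 160, 187 and 120 CPM in wild-type CCl4 mice and 190, 68.4, 211, 269 and 158 CPM in Trem1-deficient mice. The groups overlapped, and the log2 differences were -0.64 ± 0.36 for CCl4 in wild-type mice and 0.03 ± 0.36 for genotype (edgeR adjusted p = 0.355 and 0.978). Of the 10 members, Clec7a had the smallest fitted difference between genotypes under CCl4.

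Clec1b encodes CLEC-2, the receptor for podoplanin, which is best known from platelets and is also a Kupffer cell transcript. It was the most abundant member in oil mice, with 454, 215, 678, 461 and 543 CPM. Wild-type CCl4 mice had 289, 98.7, 99.3, 37.2 and 84.4 CPM, and 4 of the 5 lay below every oil mouse. Trem1-deficient mice had 319, 397, 239, 505 and 448 CPM, and 4 of the 5 lay above every wild-type CCl4 mouse. The log2 fold change was -1.95 ± 0.41 for CCl4 in wild-type mice (edgeR adjusted p = 0.00328) and 1.65 ± 0.41 for genotype (edgeR adjusted p = 0.0262).

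The genotype call for Clec1b was fragile: it was lost without wild-type CCl4 mouse 2, 3, 4 or 5 or Trem1-deficient mouse 2, 4 or 5, with log2 differences of 1.41 to 2.27 over all 10 leave-outs. Without wild-type CCl4 mouse 1, whose 289 CPM stood apart from the next value of 99.3 CPM, edgeR's adjusted p was 0.000387. With the index series in the fit the differences were -2.10 (edgeR adjusted p = 0.388) and 1.70 (edgeR adjusted p = 0.0716), and within 1 series the genotype difference was 1.71 (edgeR adjusted p = 0.181). Of the 50-base stretches in the last 600 bases of the Clec1b transcripts, 11.1% also occur in Clec9a, whose exons overlap those of Clec1b. Some reads of Clec1b could therefore have been left uncounted or counted for Clec9a.

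Clec1b was set beside the markers of Kupffer cells and of platelets. Its correlation with the Kupffer sum was 0.95 over 15 libraries and 0.89 with group means subtracted, and 0.19 and 0.41 with the platelet sum. The 8 platelet markers summed to 2.5 to 63.4 CPM in oil mice, 2.77 to 88.6 CPM in wild-type CCl4 mice and 16.6 to 71.8 CPM in Trem1-deficient mice. Gp5 and Gp6 were at 0 in all 15 libraries, and 1 of the 8 passed the filter on low counts. The lowest of these sums lay within the range of the floor, and the difference between the correlations was not tested. Per 100 counts of Clec4f, Clec1b came to 18 to 26.5 in oil mice, 30.5 to 51.5 in wild-type CCl4 mice and 14.8 to 43.4 in Trem1-deficient mice. The fitted log2 fold change of Clec4f after CCl4 in wild-type mice was -3.08, beside -1.95 for Clec1b; the difference between the genes was not tested. The median of Clec7a went from 11.5 per 100 Clec4f counts in oil mice to 83.2 in wild-type CCl4 mice, with 13.1 in Trem1-deficient mice.

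Clec12a and Clec4a2 encode receptors with an inhibitory tail motif, MICL, which binds uric acid crystals, and DCIR. Clec12a had 147, 71.4, 213, 116 and 178 CPM in oil mice and 115, 154, 123, 200 and 209 CPM in Trem1-deficient mice. In wild-type CCl4 mice it had 78.4, 77.5, 5.73, 3.43 and 1.38 CPM: mice 1 and 2 were close to the lowest oil mouse and mice 3, 4 and 5 were far below every other mouse. All 5 Trem1-deficient mice lay above all 5 wild-type CCl4 mice. With this spread the log2 differences of -2.11 ± 0.71 and 2.25 ± 0.71 did not pass the test (edgeR adjusted p = 0.0865 and 0.0988). They passed without wild-type CCl4 mouse 1 (-2.72 and 2.87, edgeR adjusted p = 0.0253 and 0.0265), with no filter on low counts (edgeR adjusted p = 0.00311 and 0.00155) and by DESeq2 (adjusted p = 0.0302 and 0.0232). The CCl4 difference also passed without wild-type CCl4 mouse 2 (-2.67, edgeR adjusted p = 0.0476). Neither passed with only the groups compared in the fit (edgeR adjusted p = 0.188 and 0.194). Within 1 index series the genotype difference was 2.41 ± 0.93 (edgeR adjusted p = 0.379).

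Clec4a2 did not separate the groups. It had 159, 63.9, 197, 246 and 255 CPM in oil mice, 160, 149, 185, 109 and 202 CPM in wild-type CCl4 mice and 98.2, 307, 288, 207 and 84.4 CPM in Trem1-deficient mice. The log2 differences were -0.20 ± 0.41 and 0.29 ± 0.41 (edgeR adjusted p = 0.861 and 0.808). Of the 50-base stretches at its transcript ends, 8.58% are shared with Clec4a4 or Clec4b1, members of the same gene cluster.

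Clec4a3 and Clec4a1 belong to the same DCIR cluster as Clec4a2. Clec4a3 was the steadiest member in oil mice, at 358, 389, 434, 409 and 462 CPM, a coefficient of variation of 9.76%. Wild-type CCl4 mice had 224, 161, 169, 90.4 and 96.9 CPM, all below all oil mice. Trem1-deficient mice had 335, 535, 267, 193 and 202 CPM; the 2 in the index series of the oil mice were the highest of that group, and 2 of the other 3 lay within the range of the wild-type CCl4 mice. The log2 fold change was -1.47 ± 0.34 for CCl4 in wild-type mice (edgeR adjusted p = 0.00781) and 1.05 ± 0.34 for genotype (edgeR adjusted p = 0.0985). Among the alternatives run, the genotype difference passed without wild-type CCl4 mouse 1 alone (1.25, edgeR adjusted p = 0.0317), and was 0.59 ± 0.50 within 1 index series. With the series in the fit, the CCl4 difference was -0.49 ± 0.57 (edgeR adjusted p = 1.00).

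Clec4a1 also separated oil from CCl4 in wild-type mice but by less. Oil mice had 146, 158, 217, 254 and 153 CPM and wild-type CCl4 mice 100, 78.5, 115, 109 and 136 CPM, with no overlap. Trem1-deficient mice had 156, 291, 261, 79.2 and 229 CPM, and mouse 4 was as low as the wild-type CCl4 group. Neither difference passed the test (-0.78 ± 0.38 and 0.91 ± 0.38, edgeR adjusted p = 0.259 and 0.231). The wild-type groups did not overlap for Clec4e, Clec4a1 and Clec4a3, nor did the genotypes for Clec4d and Clec12a. The share of all genes tested without such overlap was not counted, so these members cannot be called unusual in this.

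The 6 members that passed neither test also passed neither with the index series in the fit (edgeR adjusted p of 0.701 to 1.00 for CCl4 and 0.172 to 0.91 for genotype). Their log2 differences for CCl4 in wild-type mice were then -1.93 ± 0.91 for Clec4n, 2.25 ± 2.59 for Clec5a, -1.36 ± 0.64 for Clec7a, -2.51 ± 1.26 for Clec12a, -0.13 ± 0.74 for Clec4a2 and -0.55 ± 0.69 for Clec4a1. For genotype they were 1.18 ± 0.57, -1.03 ± 1.78, 0.28 ± 0.41, 2.40 ± 0.78, 0.26 ± 0.49 and 0.82 ± 0.45 in the same order. All 12 kept the sign they had without the series.

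**Figure D3:**
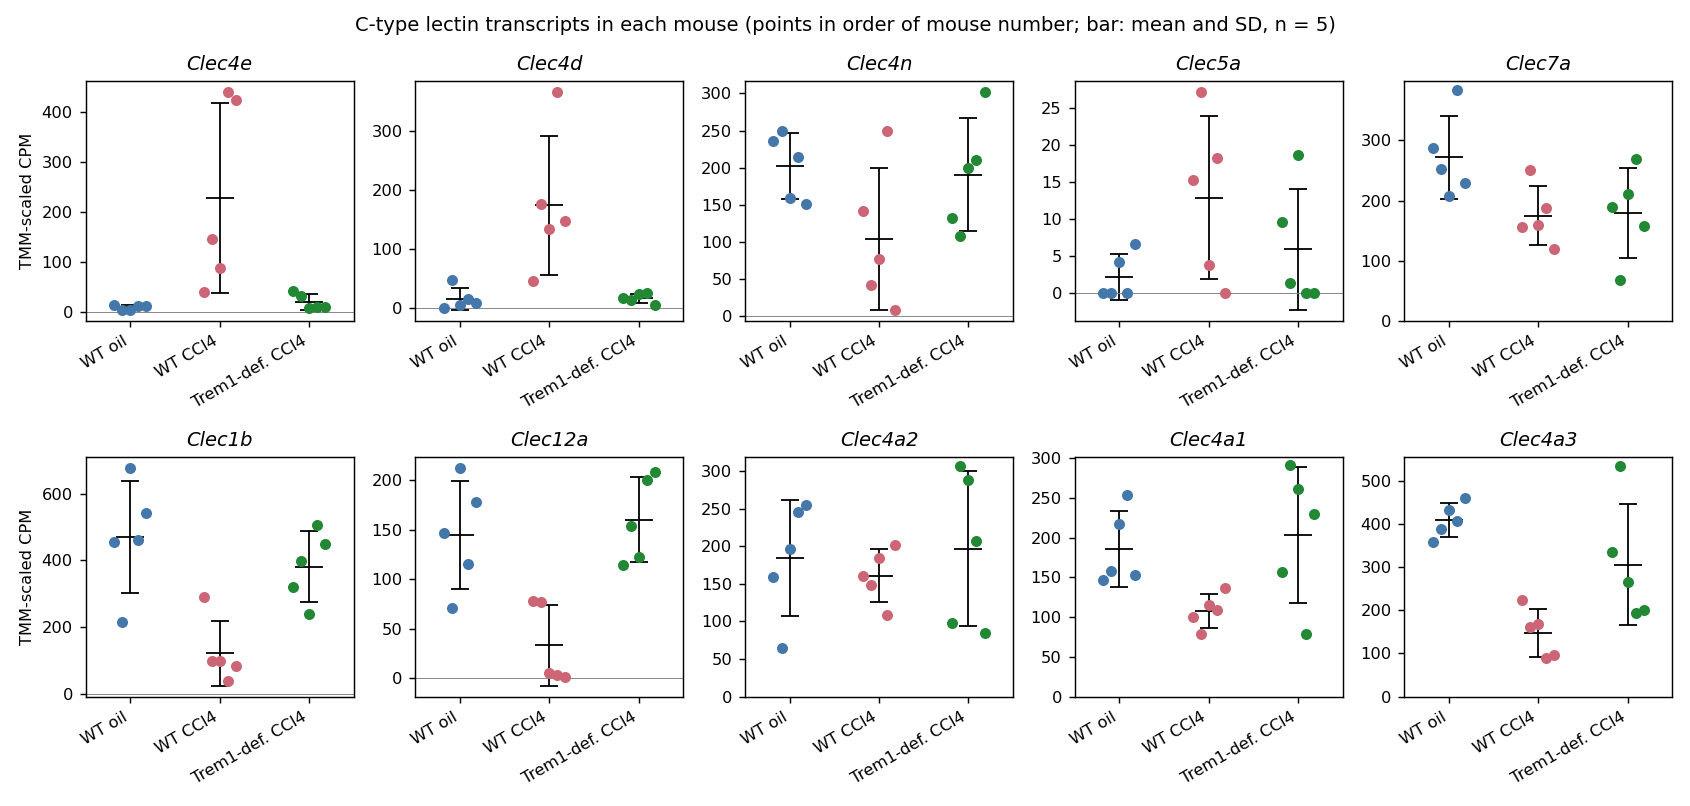
TMM-scaled CPM (y axis, linear, a separate scale for each gene) of the 10 genes in every mouse of the 3 groups (x axis); bars are the mean and SD of 5 mice. The 4 highest values of Clec4e and of Clec4d are all in wild-type CCl4 mice (86.8 to 440 and 135 to 366 CPM), and Clec1b, Clec12a and Clec4a3 are lowest there.

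The order of the members changed with the group. A 3′ tag library gives 1 kind of read per transcript end, so these levels carry no correction for length, and differences in tagging between genes are not measured. In oil mice the order of mean CPM was Clec1b (470 ± 169), Clec4a3 (410 ± 40.0), Clec7a (272 ± 68.7), Clec4n (202 ± 44.7), Clec4a1 (186 ± 47.9), Clec4a2 (184 ± 77.7), Clec12a (145 ± 54.6), Clec4d (16.0 ± 18.4), Clec4e (8.60 ± 4.57) and Clec5a (2.20 ± 3.12). The steps from Clec4a3 to Clec7a, from Clec7a to Clec4n, from Clec12a to Clec4d and from Clec4e to Clec5a were larger than both SDs; the other neighbours did not differ beyond their spread.

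In wild-type CCl4 mice Clec4e came first (227 ± 191 CPM) and Clec4d after Clec7a (174 ± 118 and 175 ± 48.5 CPM). No step between neighbours from Clec4e down to Clec4n (104 ± 95.2 CPM) was larger than both SDs. In Trem1-deficient mice Clec1b (382 ± 105 CPM) and Clec4a3 (306 ± 140 CPM) were again first and second. Clec4e (18.8 ± 15.6 CPM) and Clec4d (17.0 ± 8.16 CPM) were eighth and ninth, well below Clec12a (160 ± 43.0 CPM).

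The summed level of the 10 genes was 1900 ± 281 CPM in oil mice, 1270 ± 209 CPM in wild-type CCl4 mice and 1660 ± 178 CPM in Trem1-deficient mice. Clec4d and Clec4e together made up 1.42 ± 1.22% of these counts in oil mice (0.471 to 3.54%), 30.3 ± 18% in wild-type CCl4 mice (6.86 to 50.0%) and 2.21 ± 1.19% in Trem1-deficient mice (0.820 to 4.10%). The lowest wild-type CCl4 mouse, mouse 1, was above every mouse of the other groups in this share. Clec1b went from 24.2 ± 6.42% in oil mice to 10.0 ± 7.81% and 23 ± 5.92%. Clec7a kept 14.6 ± 3.72%, 14.1 ± 4.29% and 11.1 ± 4.75%, differences smaller than the spread between mice.

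**Figure D4:**
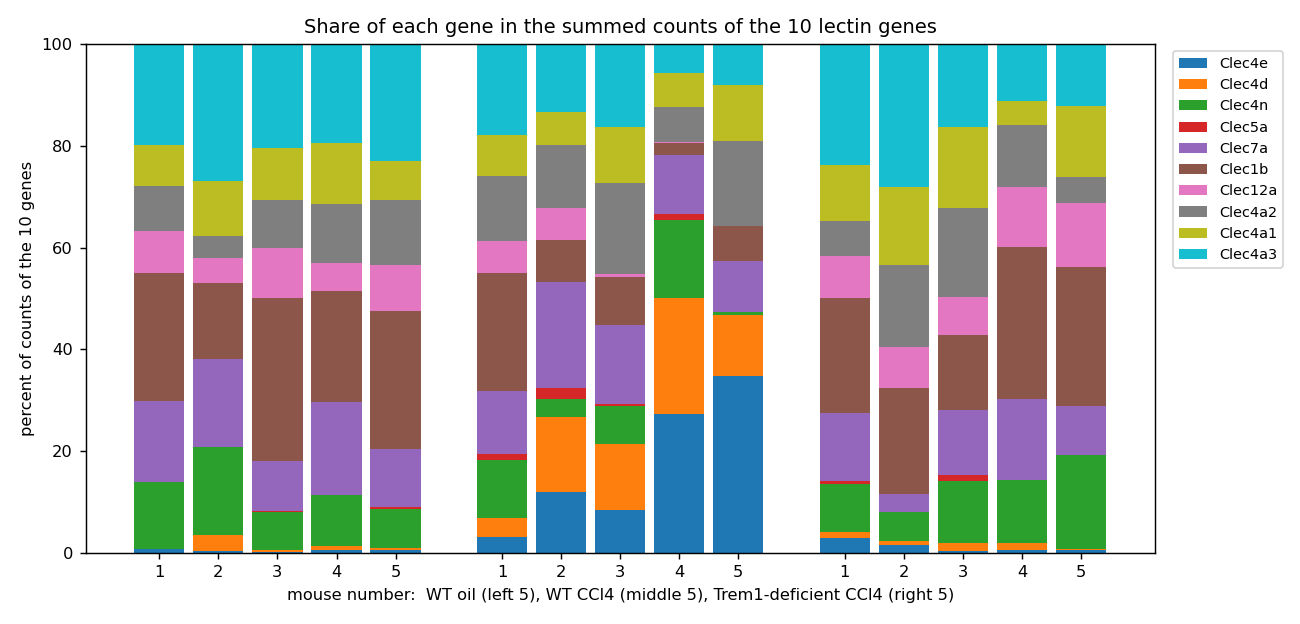
Percent of the summed counts of the 10 genes taken by each gene (stacked bars, y axis) in every mouse (x axis), by group. Clec4e and Clec4d, at the bottom of the bars, take 6.86 to 50.0% in the wild-type CCl4 mice and at most 4.10% in any other mouse.

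The genes that carry the signals of these receptors were read from the same fit. Of 19 tested adaptor, kinase and CARD9 pathway genes, 2 were lower (beside 2.09% of all genes) and 0 higher (beside 3.04%) after CCl4 in wild-type mice, with a median log2 fold change of -0.43 over the list, and 0 passed between genotypes or between Trem1-deficient CCl4 and oil mice. The 2 were the adaptors themselves. Tyrobp (DAP12) went from 1090 ± 113 CPM in oil mice to 432 ± 97.3 CPM (log2 -1.33 ± 0.26, edgeR adjusted p = 0.00135), and was at 682 ± 164 CPM in Trem1-deficient mice. Fcer1g, the Fc receptor gamma chain, went from 449 ± 16.3 CPM to 189 ± 63.8 CPM (-1.25 ± 0.30, edgeR adjusted p = 0.0120), and was at 324 ± 67.7 CPM in Trem1-deficient mice. With the index series in the fit the differences were -1.15 ± 0.46 for Tyrobp and -1.20 ± 0.56 for Fcer1g, and neither passed (edgeR adjusted p = 0.56 and 0.692). Syk had 177 ± 60.3, 118 ± 101 and 112 ± 27.5 CPM in the 3 groups and passed in no comparison. Card9 had 21 counts in all and was too scarce to test.

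Genes on the inhibitory side and the outputs were tested in the same fit. Of 7 inhibitory signalling genes, Ptpn6, the phosphatase SHP-1, was lower after CCl4 in wild-type mice (-1.41 ± 0.35, edgeR adjusted p = 0.0143, and -0.98 ± 0.63, edgeR adjusted p = 0.933, with the index series in the fit), and 0 passed in the other comparisons. Of 15 tested cytokine and other output genes of Syk and CARD9 signalling, 0 passed in any comparison. Cxcl2, a neutrophil chemokine, averaged 3760 ± 954 CPM in oil mice, 8550 ± 5730 CPM in wild-type CCl4 mice and 3070 ± 2120 CPM in Trem1-deficient mice (log2 1.19 ± 0.47 and -1.48 ± 0.47, edgeR adjusted p = 0.174 and 0.129). Il6 averaged 78.7 ± 38.6 CPM in oil mice and 3.32 ± 7.43 CPM in wild-type CCl4 mice (-4.44 ± 1.35, edgeR adjusted p = 0.0543), and Il10 131 ± 73.2 and 21.4 ± 23.5 CPM (-2.60 ± 0.84, edgeR adjusted p = 0.0740).

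Ligands described for the receptors were scarce or did not pass. None of the 5 tested ligand genes passed in any comparison. Sap130, which encodes the Mincle ligand, averaged 19.6 ± 14.7 CPM in oil mice and 8.85 ± 12.6 CPM in wild-type CCl4 mice. Anxa1, which encodes annexin A1, a ligand described for Dectin-1, averaged 3.42 ± 2.28, 32.5 ± 20.2 and 5.41 ± 3.58 CPM in oil, wild-type CCl4 and Trem1-deficient mice (3.20 ± 1.13 after CCl4, edgeR adjusted p = 0.0983). Pdpn, which encodes podoplanin, did not pass the filter on low counts. The libraries hold Kupffer cell preparations, so ligands made by other liver cells were not measured.

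Among 25 tested genes with a C-type lectin domain outside the 10, 4 were higher (beside 3.04% of all genes) and 3 lower (beside 2.09%) after CCl4 in wild-type mice. The higher ones were Cd93 (3.17 ± 0.50, edgeR adjusted p = 0.000135), Thbd (2.88 ± 0.59, edgeR adjusted p = 0.00282), Selp and Sele, and the lower ones Clec4f, Mrc1 (-1.81 ± 0.39, edgeR adjusted p = 0.00444) and Clec10a. Mrc1 encodes the macrophage mannose receptor. Between genotypes, where 0.778% of all genes were higher and 1.28% lower, Clec4f was higher in Trem1-deficient mice (2.23 ± 0.33, edgeR adjusted p = 0.000193) and Mbl2, a mannose-binding lectin of hepatocytes, lower (-3.07 ± 0.74, edgeR adjusted p = 0.0250). Cd93 was the 1 gene of the list that differed between Trem1-deficient CCl4 and oil mice (2.32 ± 0.48, edgeR adjusted p = 0.0220), beside 0.178% of all genes higher there. With the index series in the fit, 2 of the 7 CCl4 calls held, Cd93 (3.51 ± 0.81, edgeR adjusted p = 0.0373) and Clec4f (-3.36 ± 0.60, edgeR adjusted p = 0.00407). Of the genotype calls Clec4f held (2.34 ± 0.36, edgeR adjusted p = 0.000439) and Mbl2 did not (-2.57 ± 0.84, edgeR adjusted p = 0.165), nor did Cd93 in the last comparison (2.52 ± 0.57, edgeR adjusted p = 0.0643).

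Similarity between members was described by Pearson's r of log2 levels over the 15 libraries, which share group and depth, with no test. Clec4e and Clec4d had r = 0.75, and 0.14 after group means were subtracted. Clec1b and Clec12a had 0.88 and 0.68. Clec4d and Clec1b had -0.90 and -0.67. Among 7842 genes with a mean of at least 10 CPM, those most like Clec4e were Slc38a2 (0.939, and 0.731 with group means subtracted) and Smad4 (0.938 and 0.835), and those most like Clec4d were Rpl4 (0.911 and 0.681) and Wfdc21 (0.910 and 0.702).

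Clec1b was most like Aif1, a macrophage gene (0.954 and 0.858), and Cd5l, a Kupffer cell gene (0.946 and 0.872). Clec12a was most like Rgl1 (0.983 and 0.956) and Exosc5 (0.966 and 0.913), and Clec4n most like Ube2q1 (0.951 and 0.932) and Mef2a (0.942 and 0.913). Clec4a3 was most like Dnajc8 (0.938 and 0.786) and Cfp, which encodes properdin (0.920 and 0.783). The closest genes to Clec5a were Mthfd2 (0.880 and 0.863) and Ccdc109b, and those to Clec4a2, Clec4a1 and Clec7a (Klrc1 and Pnpla7, Pou6f1 and Csk, and Cstf2t and Adcy7) reached r of 0.718 to 0.803.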

How the data were processed

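RNA of Kupffer cell preparations from 15 mice was made into 3′ tag libraries (Lexogen QuantSeq), per the labels' protocols. The authors deposited raw read counts per gene, 1 column per mouse (4 lanes each); the mouse was the replicate. The submitters' processing notes name Trimmomatic, STAR 2.5.1a, Partek 6.6 and mm10, without their roles. Annotation and strand setting are not stated, so reads of overlapping or antisense genes may be mixed. The 4 tally lines were left out; genes took 12.6 to 28.8% of all reads.

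Counts were fitted in edgeR 4.0.16 (R 4.3.3) with TMM scaling, filterByExpr by group and a robust quasi-likelihood F-test over all 3 groups (12 residual degrees of freedom, biological coefficient of variation 0.888). Benjamini-Hochberg adjustment covered 9001 genes, with 0.05 as the threshold. TMM-scaled CPM is the unit of level; correlations used log2(CPM + 1). Alternatives were RLE and upper-quartile scaling, no filter and a stricter one, DESeq2 1.42.0, fits of 2 groups, the mouse number as a block, the index series as a covariate or held constant, and each mouse left out. Floors cover counting error only. The code was tested on simulated counts.

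The members, gene lists and tests were chosen with earlier results of these data known. Named genes are the members, Clec4f, Trem1, Tyrobp, Fcer1g, Syk and Card9, up to 4 genes with the smallest p per list and comparison, and the 2 genes most like each member; other called list members, Pdpn and genes at 0 were named after their values were seen. Of further marker lists, 2 of 6 dendritic cell markers were lower after CCl4 in wild-type mice (beside 2.09% of all genes). With Trem1 deficiency 1 of 6 was higher (beside 0.778%). In the B cell, T and NK cell, endothelial, stellate and platelet lists 0 markers passed.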

Additional observations from a re-analysis of the deposited data

Results flagged for a closer look

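Among the wild-type CCl4 mice, mouse 1 had 289 CPM of Clec1b, and the next highest mouse had 99.3 CPM; this gap was 0.754 of the group's range, above Dixon's critical value of 0.71 for 5 samples. Of 30 groups of 5 values checked (10 genes in 3 groups), this was the 1 that stood apart, and chance alone sets apart about 1 in 20. The same mouse had the highest Kupffer marker sum of its group (27300 CPM, others 7090 to 13900 CPM), the lowest hepatocyte sum (19600 CPM) and the lowest Clec4e (39.9 CPM). Their part in the Clec1b value was not tested.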

How the results depend on the processing

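The counts of changed members (4, 3 and 0 for CCl4 in wild-type mice, genotype under CCl4, and Trem1-deficient CCl4 against oil) were within 1.5 times of these under every alternative except the index series as a covariate, which left 1, 1 and 0, and 2 single leave-outs. With that covariate 37, 77 and 11 of all genes changed, against 462, 185 and 21. All genes changed came to 813, 563 and 73 with no filter, 1010, 616 and 74 with DESeq2, and 57 within 1 index series for genotype. Higher and lower calls were 274 and 188 for CCl4 with TMM, 200 and 216 with upper-quartile scaling; for genotype they were 70 and 115, and 86 and 72. Leaving out 1 mouse gave 302 to 759, 87 to 508 and 12 to 28 genes, and 4 to 5, 1 to 5 and 0 members. Counts moved by over 1.5 times without wild-type CCl4 mouse 1 or oil mouse 3 for CCl4, without oil mouse 1, 3, 4 or 5 for the third comparison, and without any mouse but Trem1-deficient 5 and wild-type CCl4 2 and 5 for genotype; members for genotype came to 5 without wild-type CCl4 mouse 1 and 1 without mouse 4. Clec1b missed the threshold for genotype with only those 2 groups fitted (1.65, edgeR adjusted p = 0.0578).

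Signs turned only in comparisons in which the member passed no test. For Clec7a between genotypes the log2 difference was -0.044 with RLE, -0.009 with the block, -0.045 with DESeq2 and -0.154 to 0.248 over leave-outs. For Trem1-deficient CCl4 against oil, Clec4d, Clec12a and Clec4a3 came to -0.030, -0.108 and 0.084 with the covariate and -0.035, -0.085 and 0.107 within 1 series. Leave-outs there spanned -0.185 to 1.06 for Clec4d, -0.316 to 0.067 for Clec4n, -0.029 to 0.322 for Clec12a, -0.122 to 0.288 for Clec4a2 and -0.032 to 0.335 for Clec4a1. The causes were not tested.

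Mice of the same number did not deviate together (r of -0.06 to 0.04 over 15 pairs, beside -0.111 to 0.0962 over 60 pairs of other numbers). The main fit used no pairing, though such correlations cannot show that the numbers carry none. With the number as a block, 365, 158 and 21 genes and 4, 3 and 0 members changed. Depth limits Clec5a most, with 0 counts in 6 of 15 libraries.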
